A study of Mus musculus with 22 samples.

Results

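Nanog was induced in mouse embryos from before gastrulation, and RNA of whole embryos was sequenced at embryonic day (E) 7.5, when the germ layers form. The comparison was chosen by its labels and sets 3 induced pools against 2 control pools, 5 of the 22 libraries of the series. Both groups had the genotype ROSA26tg/+; Nanogtg/+ on C57BL/6, so the controls carried the doxycycline-dependent activator and the Nanog transgene too. Doxycycline was injected into the peritoneum of the mothers of induced pools at E4.5 and continued in their drinking water, and mothers of controls got none. Each pool held 8 to 12 whole embryos, sired by males homozygous for both transgenes, so a library averages over embryos. GAII and HiSeq 2500 sequencers are named without being assigned to libraries, and no group received doxycycline without a transgene. The Oct4 line at E7.5 (ROSA26tg/+; Oct4tg/+), with 3 control and 3 induced pools and the same doxycycline schedule, served for comparison. Nothing states that the pools of a group came from separate litters, so p-values measure only the spread between these pools.

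Nanog is a homeodomain transcription factor of the inner cell mass and epiblast, where it works with Oct4 (Pou5f1) and Sox2 to hold cells in a pluripotent state. The epiblast leaves this state as the primitive streak forms. Nodal, a TGF-beta family ligand that needs the coreceptor Cripto (Tdgf1), sustains the epiblast and starts the streak, and it induces its own inhibitors Lefty1 and Lefty2. Cells leaving the streak become definitive endoderm and mesoderm, the source of the first blood, heart, somites and lateral plate, and Hox and Cdx genes mark posterior levels of the body axis.

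In their short gene models the induced Nanog libraries differed from all others of E7.5. Totals were 6.59 M and 8.54 M counts (M for 1000000) in controls 2 and 3, and 10.9 M, 26.0 M and 6.95 M in induced 1, 3 and 4. Values below keep that order of pools and are counts per 1000000 counts (CPM) after scaling between libraries, in which 3 counts come to 0.115 to 0.455 CPM. Gene models shorter than 80 nucleotides took 31.3 and 36.8 CPM in the controls and 0.677, 1.13 and 0.575 CPM in the induced pools. The 6 pools of the Oct4 line at E7.5 had 29.1 to 51.9 CPM in these models, and the 11 libraries of E9.5 had 0.634 to 2.02 CPM. A difference between library types therefore cannot be told apart from the induction. Mitochondrial genes held 3.30% and 3.63% of counts in controls and 5.27%, 6.72% and 8.26% in induced pools.

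Marker genes of the tissues in a whole embryo were read in all 5 pools. The sum of 5 epiblast markers was 1062, 1040, 2204, 2599 and 2487 CPM, and that of 6 visceral endoderm markers 2085, 2304, 1251, 1218 and 910 CPM. Primitive blood (4 markers) summed to 49.3, 77.6, 0.643, 3.43 and 8.21 CPM, and trophoblast (5 markers, Gcm1 under 1 CPM in all 5 pools) to 39.2, 93.0, 174, 207 and 226 CPM. So epiblast and trophoblast sums were higher and visceral endoderm and blood sums lower in every induced pool. Among all genes tested, control and induced pools did not overlap for 44.7%, so a lack of overlap was common. Of the 5 trophoblast markers 1 passed the test given below, and their sum differed between the controls, at 39.2 and 93.0 CPM. The other sums overlapped between the groups. They ranged over 331 to 431 CPM for the streak, 114 to 205 CPM for parietal endoderm, 112 to 226 CPM for endothelium and 233 to 507 CPM for 9 markers of maternal decidua and blood. In such samples, fewer cells of a type and less RNA per cell cannot be told apart.

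**Figure D1:**
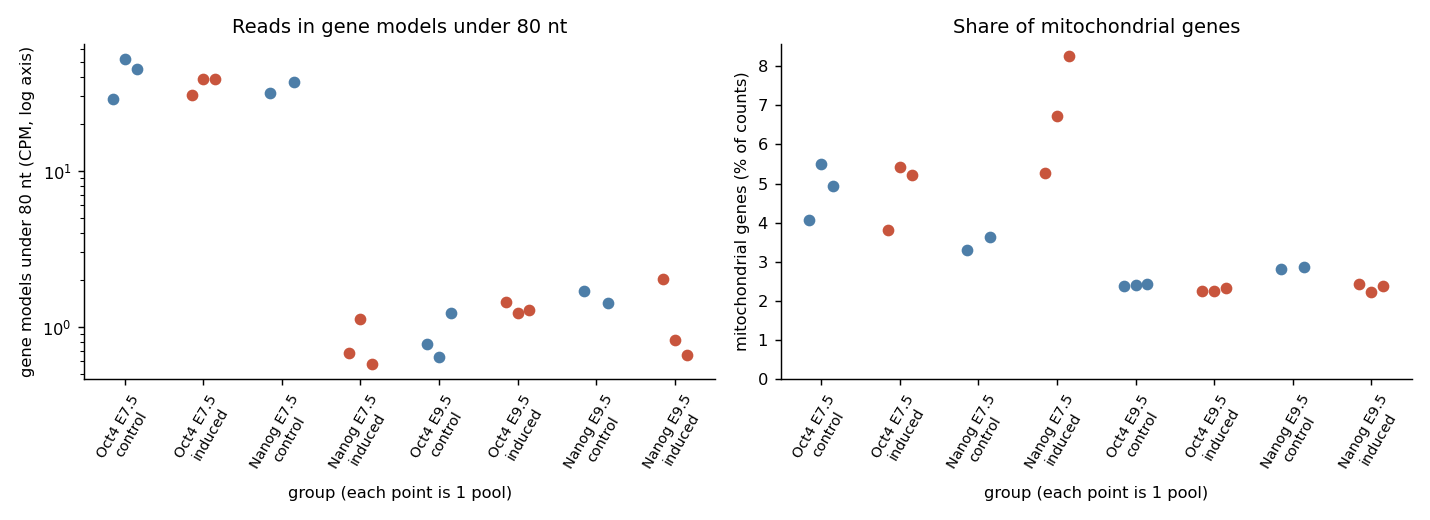
Left, CPM in gene models under 80 nucleotides (log axis), and right, mitochondrial genes as a percent of counts, for each of the 22 libraries by group, with controls in blue and induced pools in red. The 3 induced Nanog pools at E7.5 sit at 0.575 to 1.13 CPM on the left while the other pools of that stage sit at 29.1 CPM or more.

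In embryos with induced Nanog 11 of 19 primed epiblast genes and 11 of 27 Nodal pathway genes were called higher. Of Hox genes 12 of 24 were called lower, as were 12 of 23 primitive blood, 10 of 17 lateral plate and limb and 15 of 26 visceral endoderm genes, while streak genes went both ways. The quasi-likelihood test of edgeR called 1099 of 14118 genes (7.78%) at an adjusted p under 0.05, of which 418 (2.96%) were higher and 681 (4.82%) lower in induced pools. Among these, 196 were higher and 320 lower by at least 2-fold, and the median log2 fold change of all genes tested was 0.00344. Control and induced pools did not overlap for 44.7% of genes. Without control 2 the test called 161 genes and without control 3 it called 171, in fits that take the single control left to be as variable as the induced pools. A call is described below as kept where it held in each of the 5 fits that left out 1 pool. This applied to 106 genes (0.751%), 32 higher and 74 lower. Fold changes are given as log2 values, induced minus control, with their standard error. The shares of all genes called, 2.96% higher and 4.82% lower, are the baseline for every list count below.

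Nanog itself (chr 6, 122657507 to 122664651, NCBIM37) read 22.5 and 16.9 CPM in controls and 104, 55.3 and 119 CPM in induced pools. Every induced pool was above both controls, and induced 3 was the lowest of them. The difference was 2.24 ± 0.45 with an adjusted p of 0.0752, so the gene that was induced did not pass the test of edgeR. It did pass without induced 3 (0.000533) and not without control 2 (0.331), control 3 (0.346), induced 1 (0.17) or induced 4 (0.128). With DESeq2 the adjusted p was 3.31e-05 and with limma-voom 0.0371, so both called it higher, as did edgeR in 1 model over all 22 libraries (2.15e-05) and against the controls of the Oct4 line (0.00528). The counts combine transgene and endogenous transcripts. Pou5f1, which encodes Oct4 and was not a transgene in this line (chr 17, 35642982 to 35647721), read 241 and 218 CPM in controls and 461, 548 and 592 CPM in induced pools. Its groups were well apart and it rose by 1.22 ± 0.12 (adjusted p = 0.000955), a call that was kept. Sox2, the remaining core factor, read 46.5, 40.04, 41.7, 51.9 and 49.3 CPM (0.14 ± 0.13, adjusted p = 0.553), with overlapping groups.

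**Figure D2:**
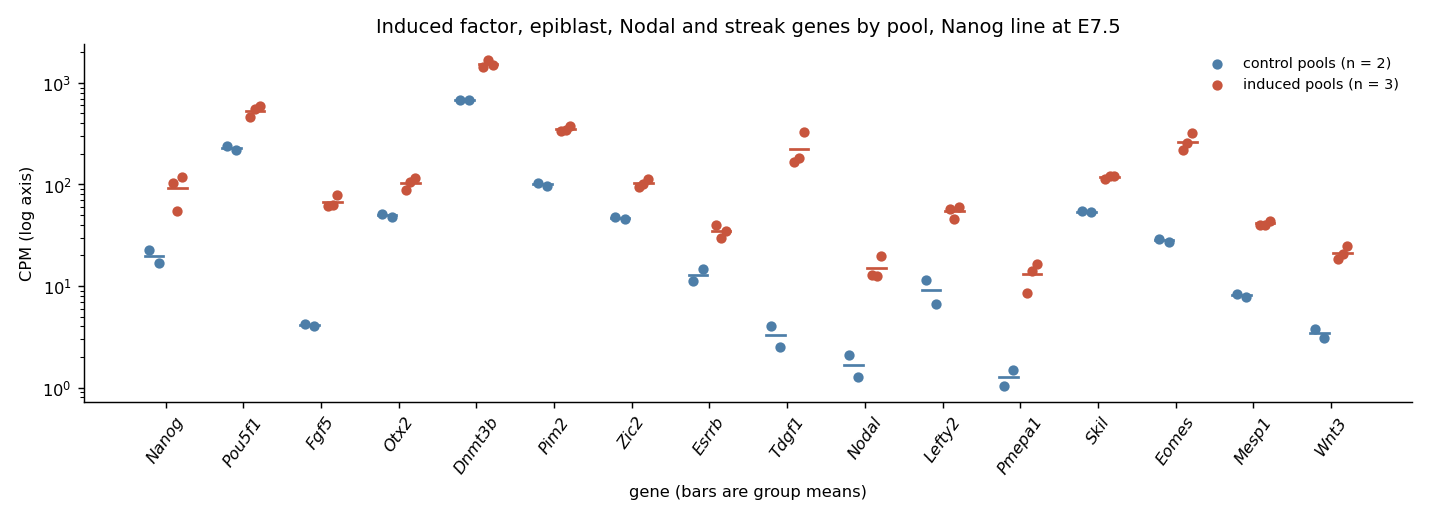
CPM of 16 genes (log axis) in each of the 2 control pools (blue) and 3 induced pools (red), with bars at the group means. All induced pools lie above both controls for each gene drawn, and for Nanog the induced pools spread from 55.3 to 119 CPM.

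Genes of the epiblast and of Nodal signalling rose, and the sequence in front of 3 of them is shown because letters read by the pluripotency and Nodal factors occur there. The stretches are the 250 bases before the RefSeq start in GRCm38.p6 (206 for Pim2, cut to end before the first exon annotated in NCBIM37), and each matched NCBIM37 once. Capitals mark 3 motifs: TAATGG, a homeodomain core of the kind Nanog binds, AATNNACA, the form bound by Foxh1, the Smad partner in Nodal signalling, and ATGCAAAT, the octamer that names the Oct factors. Both strands were searched, and although TAATGG and AATNNACA can share bases, the matches marked here do not.
Tdgf1, chr9:110848663-110848912, minus strand: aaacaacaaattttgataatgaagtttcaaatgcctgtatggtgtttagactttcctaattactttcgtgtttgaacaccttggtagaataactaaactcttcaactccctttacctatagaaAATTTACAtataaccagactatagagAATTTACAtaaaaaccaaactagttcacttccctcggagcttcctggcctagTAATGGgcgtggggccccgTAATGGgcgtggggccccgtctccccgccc
Nodal, chr10:60880470-60880719, plus strand: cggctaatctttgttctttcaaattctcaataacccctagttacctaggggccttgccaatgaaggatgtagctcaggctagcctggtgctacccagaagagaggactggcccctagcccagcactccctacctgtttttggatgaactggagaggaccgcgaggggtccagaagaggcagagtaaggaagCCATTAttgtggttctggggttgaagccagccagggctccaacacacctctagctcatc
Pim2, chrX:7455182-7455387, plus strand: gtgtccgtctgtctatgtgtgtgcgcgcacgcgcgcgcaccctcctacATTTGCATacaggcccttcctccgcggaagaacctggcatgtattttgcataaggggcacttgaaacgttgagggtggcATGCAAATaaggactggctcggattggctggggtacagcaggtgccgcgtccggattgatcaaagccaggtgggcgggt

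Counted from the start of each gene, Tdgf1 held AATNNACA at bases -127 to -120 and -101 to -94 and TAATGG at -49 to -44 and -30 to -25. Nodal held TAATGG on the minus strand at -59 to -54, and Pim2 held the octamer on the minus strand at -202 to -195 and on the plus strand at -123 to -116. Of 32851 promoters in the table, read over the 250 bases before the start, 6.57% held TAATGG, 10.9% AATNNACA and 1.60% the octamer. A gene with several promoters was counted if any of them held the motif, so shares of genes and of promoters are unlike units. Among the 9675 tested genes with an entry the shares were 5.06%, 7.92% and 1.67%. They were 6.83%, 6.83% and 2.05% among the 293 called higher genes with an entry, and among the 442 called lower genes 3.85%, 8.37% and 1.58%. A match describes letters only, and no binding was measured.

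Primed epiblast genes rose: 11 of 19 passed the test, against 2.96% of all genes, and the list median was 0.549. Fgf5, a growth factor that marks the late epiblast, read 4.20 and 4.02 CPM in controls and 61.4, 63.2 and 78.5 CPM in induced pools. It rose by 4.04 ± 0.17 (adjusted p = 1.25e-05), and its highest adjusted p without 1 pool was 0.000561. The kinase gene Pim2 read 104, 96.8, 335, 348 and 375 CPM (1.81 ± 0.10), and Dnmt3b, the de novo DNA methyltransferase of the epiblast, read 679.6, 676, 1441, 1672 and 1506 CPM (1.18 ± 0.10). In both genes the pools of a group lay close together and far from the other group. Otx2, a homeobox factor of the primed state and later of the head, read 51.6, 47.4, 88.8, 105 and 117 CPM (1.07 ± 0.13). The zinc-finger genes Zic2 (1.13 ± 0.11) and Zic5 (1.14 ± 0.10) rose too, and all 6 of these calls were kept.

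Foxd3, a forkhead factor needed to maintain the epiblast, stood near the detection limit in controls at 0.305 and 0.344 CPM and read 7.41, 18.5 and 19.7 CPM in induced pools (5.50 ± 0.68, adjusted p = 0.00735). Its call was lost without control 2 (0.113) or control 3 (0.123) and with limma-voom (0.0912). Enpp3 (2.02), the adhesion gene Epcam (0.74), Dnmt3a (0.55) and the ETS factor Etv5 (0.42) completed the 11 primed epiblast genes. Enpp3 lost its call without control 2 (0.0516), Epcam without control 2 (0.0516) or control 3 (0.0566), Dnmt3a without control 2 (0.18), control 3 (0.212) or induced 3 (0.067) and Etv5 without control 2 (0.258) or control 3 (0.148). Without control 2, 6 members of the list passed, and without control 3, 7 did. Pou3f1, a POU factor of the primed epiblast, was divided over 2 gene models, of which 1 was at 0 in the induced pools. The sum of both read 23.3, 22.6, 38.9, 61.0 and 60.3 CPM, so the call of the single model as lower (adjusted p = 0.0395) does not describe the gene.

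Core and naive pluripotency genes moved in both directions, with 6 of 18 tested members higher, 2 lower and a median of 0.695. Esrrb, an orphan nuclear receptor of naive cells, read 11.2 and 14.6 CPM in controls and 39.6, 29.9 and 35.1 CPM in induced pools (1.42 ± 0.18, adjusted p = 0.00246). L1td1, an RNA-binding gene of pluripotent cells, read 99.2, 85.5, 197, 203 and 242 CPM (1.21 ± 0.12). Both calls were kept. Dppa4 (1.78 ± 0.29), Dppa5a (1.46 ± 0.25) and Zfp42, which encodes Rex1 (0.86 ± 0.19), rose, and Tdgf1, described with the Nodal pathway, was the sixth. Dppa4 lost its call without control 2 (0.077), Dppa5a without control 2 (0.0936) or control 3 (0.118) and Zfp42 without control 2 (0.263) or control 3 (0.101).

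Other members of the core and naive pluripotency list were lower or did not pass. Tcfcp2l1, a naive-state factor, read 43.6, 47.1, 31.6, 23.8 and 26.3 CPM (-0.74 ± 0.14) and lost its call without control 2 (0.0973) or control 3 (0.146). Lin28a, which blocks let-7 processing, read 1150, 1110, 813, 812 and 658 CPM (-0.57 ± 0.11) and lost its call without control 2 (0.175) or control 3 (0.131). Both had groups that did not overlap. Utf1, a chromatin factor of pluripotent cells, read 20.8, 27.9, 62.6, 119 and 108 CPM and missed the threshold (1.99 ± 0.37, adjusted p = 0.0534). The naive factor Klf4 (0.69 ± 0.22), the orphan receptor Nr0b1 (0.70 ± 0.26) and the zinc-finger factor Sall4 (-0.20 ± 0.14) did not pass either. Higher members numbered 2 without control 2 and 3 without control 3.

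In the Nodal pathway the ligand, the coreceptor, the inhibitors and several targets rose: 11 of 27 tested members were higher and 1 lower, with a median of 0.412. Nodal (chr 10, 60880720 to 60888086) read 2.09 and 1.26 CPM in controls and 12.8, 12.6 and 19.7 CPM in induced pools. It rose by 3.17 ± 0.34 (adjusted p = 0.00142), a call that was kept. Tdgf1, the coreceptor gene (chr 9, 110842114 to 110848662), had the largest fold change of the list, at 4.03, 2.52, 166, 184 and 326 CPM (6.13 ± 0.58, adjusted p = 0.0166). Its groups were far apart, yet the call was lost without control 2 (0.12) or control 3 (0.132). The extracellular inhibitor Lefty2 read 11.5, 6.61, 57.4, 45.6 and 59.8 CPM (2.60 ± 0.24, adjusted p = 0.00204), a kept call, though it did not pass against the controls of the Oct4 line (0.0933). Lefty1, the other Lefty inhibitor, was near the detection limit in controls at 0.454 and 0.164 CPM and read 2.43, 3.65 and 9.53 CPM when Nanog was induced (4.20 ± 0.93). The Lefty1 call was lost without control 2 (0.205), control 3 (0.287) or induced 3 (0.0606). Cer1, whose product binds Nodal and BMP ligands, read 41.1, 33.04, 91.6, 67.3 and 95.3 CPM (1.19 ± 0.18). Its fold change was 1.04 without control 3, and its call was not kept.

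Inside the cell, Pmepa1, a feedback inhibitor that binds receptor Smads, read 1.05, 1.49, 8.54, 14.04 and 16.6 CPM (3.32 ± 0.38). Skil, which encodes the Smad corepressor SnoN, read 54.2, 53.1, 114, 122 and 119.8 CPM (1.14 ± 0.09, adjusted p = 0.000264). Both calls were kept. Tgif1, another corepressor, rose by 0.47 and lost its call without control 2 (0.144) or control 3 (0.204). Smad3, a signal transducer, was the member that fell, reading 62 and 73.9 CPM in controls and 43.97, 36.5 and 40.5 CPM in induced pools (-0.76 ± 0.12), and it lost its call without control 3 (0.109). Smad2 (-0.42 ± 0.14), the receptor genes Acvr1b (-0.22 ± 0.10) and Acvr2b (-0.28 ± 0.15) and the partner gene Foxh1 (0.18 ± 0.09) did not pass. The streak factors Eomes, Gsc and Lhx1, also in this list, are given next. Without control 2, 6 members of the list were higher, and without control 3, 5 were.

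Streak genes split: 7 of 26 rose and 4 fell, with a median of -0.199. Eomes, a T-box factor that directs early streak cells to endoderm and cardiac mesoderm, read 29.1 and 27.1 CPM in controls and 216, 253 and 319 CPM in induced pools (3.22 ± 0.18, adjusted p = 0.000264). Mesp1, expressed in the first mesoderm to leave the streak, read 8.37, 7.80, 40.1, 40.2 and 44 CPM (2.36 ± 0.14). Wnt3, the ligand that starts the streak, read 3.74, 3.10, 18.5, 20.6 and 24.9 CPM (2.64 ± 0.22). These 3 calls were kept, and in each gene the lowest induced pool was several times the highest control. Gsc, a homeobox gene of the anterior streak, read 0.149, 0.574, 2.85, 8.12 and 11.9 CPM (4.25 ± 0.90), and Lhx1, a LIM-homeobox gene of the same cells, read 16.4, 16.1, 92.8, 66.2 and 137 CPM (2.59 ± 0.39). Gsc lost its call without control 2 (0.29), control 3 (0.213) or induced 3 (0.0839), and Lhx1 without control 2 (0.25), control 3 (0.231) or induced 1 (0.106). Mesp2 (1.24 ± 0.32), a somite-forming relative of Mesp1, and the homeobox gene Evx1 (0.63 ± 0.16) rose as well, the former not passing without control 2 (0.112), control 3 (0.345), induced 1 (0.0741) or induced 3 (0.101) and the latter not without control 2 (0.368), control 3 (0.0812), induced 1 (0.0647) or induced 3 (0.093).

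In the streak list Cdx1, Cdx2, Wnt3a and Tbx6 fell. Cdx1, a caudal factor that controls Hox genes, read 85.8 and 98.2 CPM in controls and 1.74, 6.62 and 2.20 CPM in induced pools (-4.49 ± 0.57, adjusted p = 0.033). The Cdx1 call was lost without control 2 (0.218), control 3 (0.201) or induced 4 (0.0751). Cdx2, its relative, read 97.4, 97.3, 39.5, 49.6 and 29.6 CPM (-1.28 ± 0.19) and was lost without control 2 (0.108), control 3 (0.108) or induced 1 (0.0607). Wnt3a, a ligand of the posterior streak and tail bud, read 15.5, 17.7, 4.13, 6.47 and 3.08 CPM (-1.81 ± 0.29) and was lost without control 2 (0.0626) or control 3 (0.087). Tbx6, which commits cells to paraxial mesoderm, read 28.4, 25.5, 7.25, 9.98 and 5.72 CPM (-1.77 ± 0.22), a kept call. T, the pan-streak T-box gene Brachyury, read 164, 154, 168, 152 and 132 CPM (-0.08 ± 0.11, adjusted p = 0.712), with overlapping groups. Msgn1, a paraxial mesoderm factor, read 20.3, 19.5, 1.19, 4.61 and 1.03 CPM (-2.94 ± 0.63, adjusted p = 0.0601), and Cdx4 read 12.9, 12.7, 1.47, 3.35 and 0.293 CPM (-2.70 ± 0.65, adjusted p = 0.0732). Both were below the controls in every induced pool and short of the threshold. Of 16 node and endoderm genes 5 rose (Gsc, Lefty1, Cer1, Chrd and Dkk1) and 2 fell (Shh and Foxa1), with a median of 0.541. Without control 2, 1 member of that list was higher, and none of its calls was kept.

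Among signalling lists, more FGF genes rose than fell, and more hedgehog and BMP genes fell than rose. Of all genes, 2.96% were called higher and 4.82% lower. Of 20 FGF genes 7 rose and 3 fell, with a median of 0.234, and of -0.0598 against the Oct4 line controls. The receptor gene Fgfr1 was left out of these counts because its symbol covers 2 gene models. The sum of both read 253, 245, 129, 166 and 136 CPM, lower in every induced pool. The ETS factor Etv1 read 10.8, 9.29, 31.2, 23.6 and 29.3 CPM (1.48 ± 0.18) and kept its call along with Fgf5. The feedback inhibitors Spry2 (0.69), Spry4 (0.45), Il17rd (0.86) and Dusp6 (0.45) rose, as did Etv5, and the receptors Fgfr2 (-0.64) and Fgfr3 (-1.46) and the phosphatase Dusp4 (-0.65) fell. Without control 2 or control 3, 2 members were higher and the calls as lower were lost. Of 14 hedgehog genes 6 fell and Gas1, a coreceptor, rose, with a median of -0.773. Shh, the ligand made by the node and notochord, read 8.43, 5.45, 0.275, 0.670 and 0 CPM (-4.02 ± 0.60) and lost its call without control 2 (0.0872) or control 3 (0.0524). Ptch1, its receptor and target, read 179, 171, 101, 89.4 and 72.5 CPM (-0.99 ± 0.13) and lost its call without control 2 (0.0524). The antagonist Hhip and the effectors Gli1, Gli2 and Gli3 also fell, and 2 and 1 members were lower without control 2 and without control 3.

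Of 25 BMP genes 6 fell (Bmp5, Bmp7, Smad6, Smad9, Id1 and Id3) and the antagonist Chrd rose, with a median of -0.319, and none of these calls was kept. Of 27 Wnt genes Wnt3, Wnt2b and the antagonist Dkk1 rose and Wnt3a, Wnt5a, Wnt8a and the feedback genes Rnf43 and Axin2 fell. The list median was -0.0178 (-0.198 to 0.041 over the alternatives run). The receptor gene Fzd10, left out because its symbol covers 2 gene models, summed to 33.0, 37.5, 7.89, 13.8 and 8.21 CPM. Wnt8a, a ligand of the streak, read 30.6, 30.9, 11.01, 12.7 and 8.80 CPM (-1.48 ± 0.17). Its call and that of Wnt3 were the ones of the Wnt list that held without control 2 or control 3.

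Hox genes had the lowest median of the 40 lists, at -2.64: 12 of 24 tested members fell, against 4.82% of all genes, and the others did not pass. With a filter on a mean of at least 1 CPM instead, the median was -1.96 and 8 members were lower. The main filter needs counts in only 2 pools. Members counted mainly in the controls could therefore enter the test, and members low in both groups could not. Hoxb4 read 7.77 and 6.88 CPM in controls and 1.01, 1.14 and 0.880 CPM in induced pools (-2.80 ± 0.31), and Hoxb6 read 8.82, 7.46, 0.734, 1.42 and 0.587 CPM (-2.997 ± 0.38). These were the 2 calls of the list that were kept. Others that fell were Hoxa5, Hoxb3, Hoxb5, Hoxb7, Hoxb9, Hoxc4, Hoxc8, Hoxd1 and Hoxd9, of which Hoxd1 (5.98, 7.00, 2.39, 2.76 and 1.03 CPM) and Hoxd9 (6.57, 7.46, 2.57, 2.48 and 2.64 CPM) were the most abundant in controls. Hoxa10 and Hoxa11 went the other way without passing. Hoxa10 read 7.47, 7.92, 12.7, 13.3 and 39.2 CPM (adjusted p = 0.315), and Hoxa11 read 6.72, 3.45, 8.03, 9.63 and 30.2 CPM (adjusted p = 0.351). In induced 4, where both were highest, the muscle gene Des read 146 CPM against 29.6 to 52.2 CPM in the other 4 pools, and Wnt4, a ligand of the decidua, read 25.9 CPM against 3.64 to 8.50 CPM. The sum of the 9 markers of maternal decidua and blood was lowest in that pool, at 445, 438, 315, 507 and 233 CPM. This sum holds Des itself and adult globin genes, of which Hbb-b1, given below, was also lowest in induced 4. It therefore does not measure decidua alone. Hoxa10 and Hoxa11 were also above both controls in induced 1 and induced 3, where Des and Wnt4 stayed within the lower ranges given. The other decidua markers are not given singly here. The part of decidua in the Hoxa10 and Hoxa11 values was not tested. Another 14 members of the list were under the filter on low counts, and Hoxa3 was divided over 2 models that summed to 4.31, 3.88, 0, 1.47 and 0.147 CPM.

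**Figure D3:**
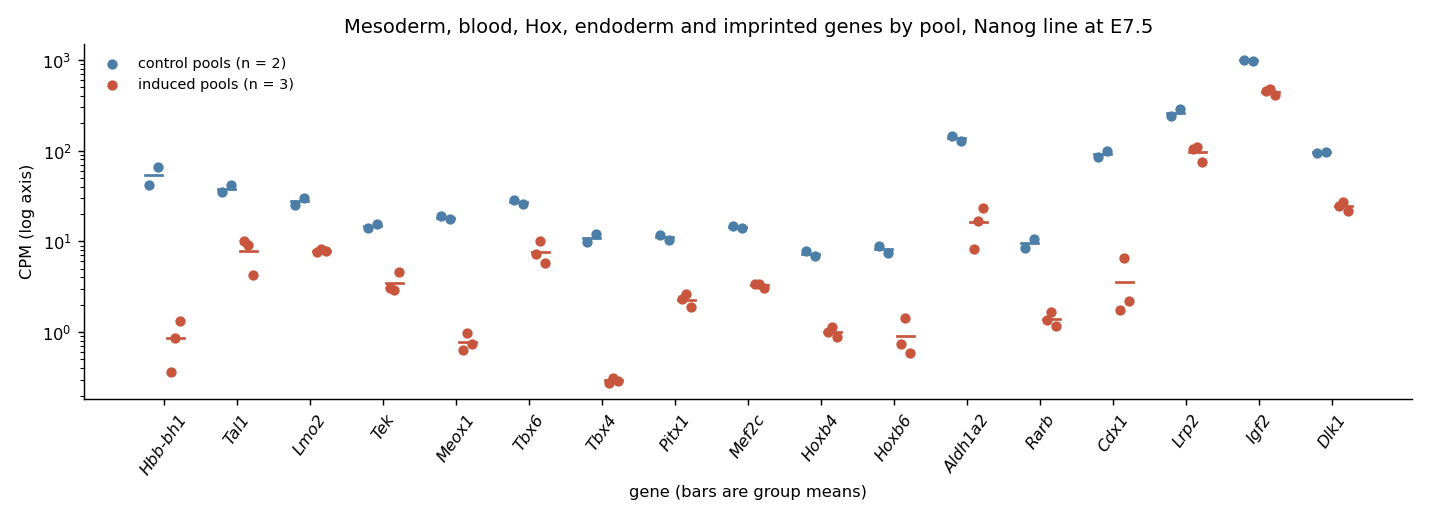
CPM of 17 genes (log axis) in each of the 2 control pools (blue) and 3 induced pools (red), with bars at the group means. All induced pools lie below both controls for each gene drawn, from Igf2 at 457, 479 and 404 CPM against 990.0 and 973 CPM to Hbb-bh1 at 0.367, 0.867 and 1.32 CPM against 41.8 and 66.2 CPM.

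Retinoic acid turns on Hox genes in the trunk, and in its list 5 of 18 genes fell and 1 rose, with a median of -0.295. Aldh1a2, the enzyme that makes retinoic acid in the embryo, read 145, 128, 8.26, 16.8 and 23.5 CPM (-3.10 ± 0.44, adjusted p = 0.0383), lost without control 2 (0.247), control 3 (0.205) or induced 3 (0.109). Rarb, a receptor gene and direct target of retinoic acid, read 8.37, 10.7, 1.38, 1.66 and 1.173 CPM (-2.71 ± 0.29), and the binding protein gene Crabp1 read 45.4, 39.6, 13.4, 13.7 and 8.51 CPM (-1.81 ± 0.19). The calls of Rarb and Crabp1 were kept. Crabp2 (-2.10) and the retinol carrier Rbp4 (-1.24) fell, and Cyp26a1, which breaks retinoic acid down, rose by 0.85. These 3 calls were lost without control 2 (0.0985, 0.188 and 0.212) or control 3 (0.0868, 0.154 and 0.15), and that of Rbp4 also without induced 3 (0.0945).

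Mesoderm derivatives were lower. Of 17 lateral plate and limb genes 10 fell, with a median of -1.36, and 3 passed without control 2 or without control 3. Tbx4, a T-box gene of the allantois and hindlimb, read 9.86 and 12.1 CPM in controls and 0.275, 0.315 and 0.293 CPM in induced pools (-5.15 ± 0.33, adjusted p = 7.28e-05). Pitx1, a hindlimb homeobox gene, read 11.8, 10.3, 2.30, 2.64 and 1.91 CPM (-2.24 ± 0.25). Both calls were kept, as was that of Hoxb6. Osr1 (-2.55), Snai2 (-2.30), Alx4 (-2.22), Prrx1 (-1.82), Tbx20 (-1.78), Twist1 (-1.36) and Pdgfra (-0.80) made up the 10. In the somite list 7 of 16 genes fell, with a median of -1.50. Meox1, a homeobox gene of somites, read 18.8, 17.8, 0.643, 0.986 and 0.733 CPM (-4.45 ± 0.26, adjusted p = 4.17e-05), and Notch1, the receptor of the segmentation clock, read 65.2, 55.9, 26.3, 24.2 and 24.3 CPM (-1.28 ± 0.11). Their calls and that of Tbx6 were kept. Pax9, Tcf15, Foxc1 and Hey2 fell without keeping their calls, and Mesp2 was the member that rose.

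Of 20 heart genes 8 fell, with a median of -1.0. Mef2c, a muscle transcription factor, read 14.6, 14.1, 3.40, 3.39 and 3.08 CPM (-2.12 ± 0.21), and its call was the 1 of the 8 that was kept. Gata5, a cardiac and endoderm factor, read 12.1, 11.6, 0.826, 2.13 and 0.147 CPM (-3.24 ± 0.62) and lost its call without control 2 (0.213), control 3 (0.191) or induced 1 (0.0918). Nkx2-5, an early heart homeobox gene, read 2.39, 1.84, 0.0918, 0.118 and 0.147 CPM (-4.06 ± 0.61) and lost its call without control 2 (0.103) or control 3 (0.0799). The troponin genes Tnni1 and Tnnt2 and the factors Tbx20, Isl1 and Gata6 fell as well.

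Primitive blood genes fell: 12 of 23 passed, with a median of -1.51, and 5 and 2 passed without control 2 and without control 3. Hbb-bh1, the embryonic beta-like globin of yolk sac red cells, read 41.8 and 66.2 CPM in controls and 0.367, 0.867 and 1.32 CPM in induced pools. It fell by 6.04 ± 0.36 on the log2 scale (adjusted p = 0.000528), and the call was kept. Lmo2, an adaptor of the early blood complex, read 24.95, 30.3, 7.62, 8.16 and 7.92 CPM (-1.80 ± 0.16), also kept. Tal1, its partner, read 34.8, 41.3, 10, 9.15 and 4.25 CPM (-2.24 ± 0.31) and lost its call without control 2 (0.0758) or control 3 (0.0897). The erythroid factor Klf1 read 2.84, 4.02, 0.275, 0.355 and 0 CPM (-3.66 ± 0.60) and lost its call without control 2 (0.0626) or control 3 (0.13). Gfi1b, Itga2b, Nfe2, Cited4, Gata1, Runx1 and Mllt3 were also among the 12. Adult globin marks maternal blood, and Hbb-b1 read 230.4, 267, 119.9, 177 and 24.7 CPM (adjusted p = 0.528), lowest in induced 4.

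Of 20 endothelial genes 3 fell, with a median of -0.208. Tek, the angiopoietin receptor, read 14.2, 15.6, 3.03, 2.88 and 4.55 CPM (-2.14 ± 0.25) and kept its call, while Fli1 (-1.74) and Sox7 (-0.95) did not. Kdr, the receptor of blood and vessel progenitors, read 74.4, 75.1, 68.01, 71.2 and 66 CPM (-0.13 ± 0.09, adjusted p = 0.432). Cdh5, an endothelial cadherin, read 11.95, 36.7, 57, 129 and 69.8 CPM (adjusted p = 0.275), and Prl3d1, a hormone of trophoblast giant cells, read 4.08, 37.8, 74, 89.1 and 71.9 CPM (adjusted p = 0.361). Both differed between the 2 controls and were higher in control 3.

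Visceral endoderm, the outer layer that feeds the embryo before the placenta works, had 15 of 26 tested genes lower, and all 26 had a fold change below 0, with a median of -0.869. Lrp2, the megalin receptor for uptake of maternal proteins, read 241 and 283 CPM in controls and 104, 108 and 74.95 CPM in induced pools (-1.45 ± 0.16, adjusted p = 0.00395), the 1 kept call of the list. Without control 2 or control 3, 1 member passed. Ttr, a thyroid hormone carrier, read 274, 278, 177, 169 and 124 CPM (-0.81 ± 0.14) and lost its call without control 2 (0.119) or control 3 (0.128). The lipoprotein gene Apoa1 read 567, 509.8, 345, 366 and 292 CPM (-0.69 ± 0.11) and lost its call without control 2 (0.112) or control 3 (0.0589). Hnf4a, a nuclear receptor that drives this program, read 75.9, 78.01, 50.9, 47.4 and 38.3 CPM (-0.75 ± 0.13) and lost its call without control 2 (0.0805) or control 3 (0.0979). In none of these 4 genes did the groups overlap. The fibrinogen genes Fga, Fgb and Fgg and Apoa2, Apoa4, Rbp4, Amn, Cdx2, Sox7 and Cited1 fell as well. Of 15 parietal endoderm genes Plat, Hspg2 and Lamb1 fell, with a median of -0.183, and none of these calls was kept.

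Of 19 trophoblast genes Eomes and Elf5 rose and Esx1 and Cdx2 fell, with a median of 0.369. Elf5, a trophoblast stem cell factor, read 23.3, 30.4, 73.1, 61.6 and 90.4 CPM (1.47 ± 0.19) and lost its call without control 2 (0.0541). Of the 20 maternal genes edgeR called 0, with 1 higher at an unadjusted p under 0.05, while DESeq2 called 2 higher and limma-voom 0. Their median of 0.245 had no stable sign: it was 0.846 without control 2, 0.044 without control 3, 0.00519 without induced 1, -0.336 without induced 3 and 1.08 against the Oct4 line controls.

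Imprinted growth genes fell: 10 of 19 passed, with a median of -0.561, and 5 of these calls were kept. Igf2, the embryonic growth factor, read 990.0 and 973 CPM in controls and 457, 479 and 404 CPM in induced pools (-1.14 ± 0.10). Its clearance receptor Igf2r read 277, 279, 159, 156 and 151 CPM (-0.84 ± 0.08), so the growth factor and the receptor that removes it were both lower. Dlk1, a Notch-family ligand, read 93.98, 97.1, 24.2, 27.01 and 21.6 CPM (-1.96 ± 0.11, adjusted p = 4.16e-05). Mest read 457, 473, 211, 239 and 196 CPM (-1.11 ± 0.10), and Plagl1, a zinc-finger factor that acts on other imprinted genes, read 15.5, 16.2, 4.59, 5.36 and 4.55 CPM (-1.70 ± 0.20). H19 (-0.67), Ndn (-0.77), Peg3 (-0.65), Nnat (-0.65) and Grb10 (-0.56) fell without keeping their calls, and Snrpn rose by 0.63.

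Matrix, epithelial and metabolic lists were divided. Of 20 matrix genes 7 fell and Lox, which crosslinks collagen, rose by 2.31. Their median of 0.0721 had no stable sign, at -0.415 without induced 1, 0.275 without induced 3, -0.113 without control 2, -0.112 with limma-voom and 0.511 against the Oct4 line controls. Vcan, a proteoglycan, read 111, 119, 46.2, 35.8 and 44.9 CPM (-1.46 ± 0.12) and kept its call. Col2a1, Col5a1, Col9a1, Col18a1, Fbln1 and Fn1 fell, from -1.23 (Col9a1) to -0.50 (Col18a1). In the list on epithelial to mesenchymal transition 6 of 19 fell and the epithelial genes Epcam and Esrp1 rose, with a median of 0.029 (-0.268 to 0.0501 over the alternatives run). Vim, a mesenchymal intermediate filament gene, read 156, 151, 75.8, 79.3 and 64.4 CPM (-1.06 ± 0.10), the kept call of the list, and Snai2, Twist1, Fn1, Zeb1 and Zeb2 were the others that fell. Slc2a3, a high-affinity glucose transporter, read 2546, 2587, 1370, 1305 and 1015 CPM (-1.06 ± 0.13) and kept its call. In the list of 22 hypoxia and glycolysis genes Slc2a1, Vegfa and Eno1 fell too and Ndrg1 rose, with a median of 0.0691.

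Amino acid supply genes were higher in 4 of 24 cases, with a median of 0.426. Slc7a3, a transporter of basic amino acids, read 23.9, 24.1, 91.2, 102 and 110.0 CPM (2.07 ± 0.12) and kept its call. Asns, Slc7a5 and Mthfd2 rose and Psph fell without keeping their calls. Of 17 p53 and cell death genes Pmaip1 and Perp rose, both kept, with a list median of 0.131. Pmaip1, which encodes the death inducer Noxa, read 26.5, 22.8, 103, 78.7 and 102 CPM (1.94 ± 0.15), and Perp, a p53 target in the membrane, read 20.02, 20.8, 41.3, 41.2 and 47.4 CPM (1.08 ± 0.12).

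Of 13 mitochondrially encoded genes 10 rose and all 13 lay above 0, with a median of 1.01, and without control 2 or control 3 none of the 10 calls held. All 13 had an unadjusted p under 0.05, DESeq2 called 13 and limma-voom 12. Against the controls of the Oct4 line the median was 0.408 and 1 of the 13 was called. Of the 24 nuclear genes of the respiratory chain edgeR called 0, with 7 higher at an unadjusted p under 0.05, and DESeq2 and limma-voom called 0, and the median was 0.0927 (-0.0331 to 0.133 over the alternatives run). Of 35 ribosomal protein genes 5 rose, Rps2 (0.81), Rpl37 (0.50), Rpl11 (0.43), Rpl38 (0.41) and Rps19 (0.39), with a median of 0.234, and none of these calls was kept. Against the controls of the Oct4 line in place of those of the Nanog line, the fold changes of Rpl37 (-0.0646), Rpl11 (-0.0344) and Rps19 (-0.035) changed sign, the list median was -0.0646, and 3 members were higher and 4 lower. Of 27 cell cycle genes 1 fell, against 4.82% of all genes, and the list median was -0.0652. The gene that fell was Ccnd2, which encodes cyclin D2. It read 224, 201, 95, 88.5 and 57.5 CPM (-1.39 ± 0.21) and lost its call without control 2 (0.134), control 3 (0.11) or induced 3 (0.0553). Of the 16 heat shock genes edgeR called 0, with 3 lower at an unadjusted p under 0.05, while DESeq2 called 1 higher and limma-voom 0, and the median was -0.162 (-0.318 to 0.0175 over the alternatives run).

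The other lists held 5 calls or fewer in a direction, where 2.96% of all genes were called higher and 4.82% lower. Fos, Ier3 and Zfp36 rose among 14 immediate early genes (median 0.37). Npc2 rose and Ctsh and Lipa fell among 19 lysosomal genes (median -0.105). Of 18 lipid genes (median 0.0278) those called included Apoe and Fasn, which fell. Of the neural lists, Cer1 and Otx2 rose and Foxd4 and Dmbx1 fell among 12 anterior neural genes (median -0.659), and Olig3 and Pax2 fell among 10 hindbrain genes (median -1.55). Elavl3 rose and Mnx1 and Isl1 fell among 8 neuronal genes, whose median was -0.435 but 0.455 without induced 1, 0.517 without induced 3, 0.411 with a mean of at least 1 CPM and 0.418 without mitochondrial genes and models under 200 nucleotides. Foxd3 rose and Snai2, Alx4, Prrx1, Crabp1 and Twist1 fell among 13 neural crest genes (median -1.02). Kit and Ifitm1 fell among 10 germ cell genes (median -0.0566, and -0.122 to 0.0125 over the alternatives run). Of 9 DNA methylation genes Dnmt3b and Dnmt3a rose and Tet3 and Dnmt1 fell (median -0.173, and 0.0671 against the Oct4 line controls), and Dnmt1 changed sign against the Oct4 line controls (0.00415). Of these, the calls of Dnmt3b, Otx2 and Crabp1 were kept.

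**Figure D4:**
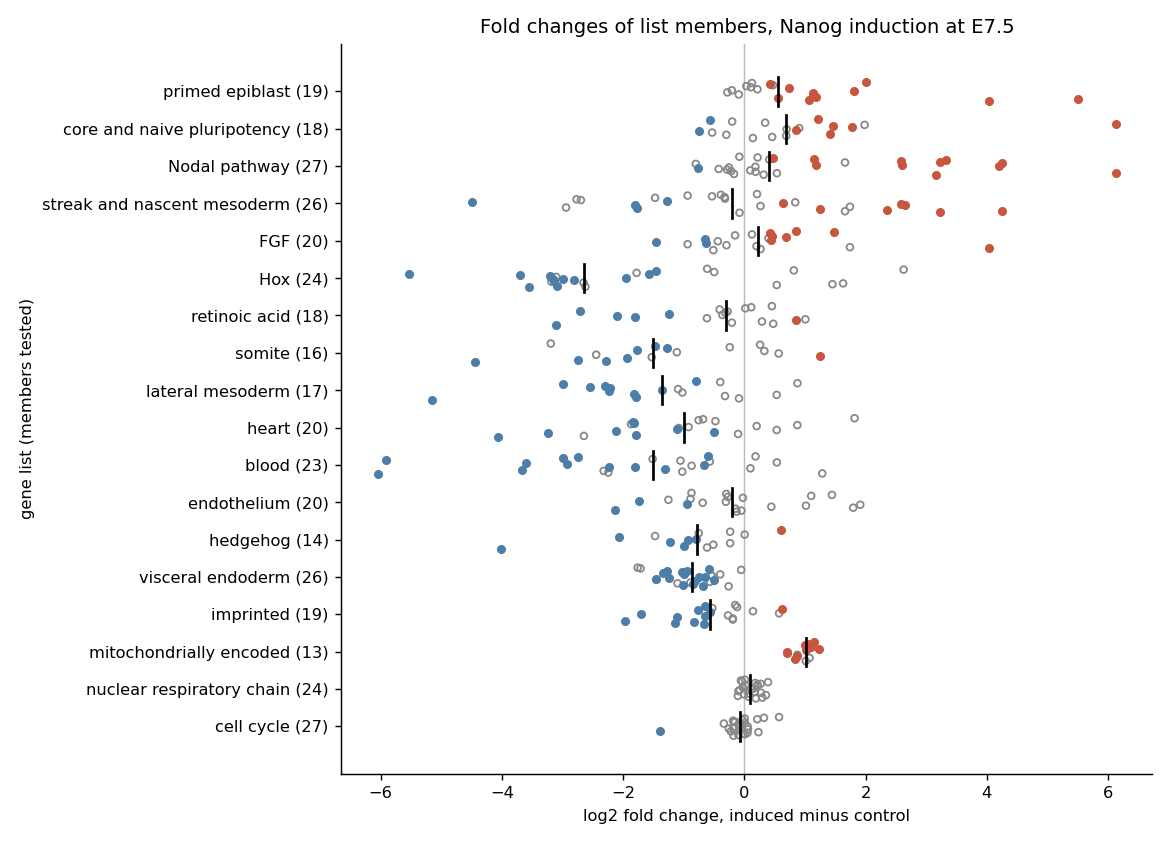
Log2 fold change of every tested member of 18 gene lists (number tested in parentheses), with called members filled (red higher, blue lower), others open and a black bar at the list median. Hox members have a median of -2.64, while the 13 mitochondrially encoded genes lie together around 1.01.

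Outside the lists, the largest rises with a named symbol and no overlap included Mmp25, a membrane-bound protease (1.20, 1.15, 8.08, 8.08 and 12.8 CPM, 3.01 ± 0.35), and Slc35d3, of the nucleotide sugar transporter family (1.79, 1.84, 9.18, 12.7 and 15.7 CPM, 2.77 ± 0.31), both kept. Prss29, a serine protease of the implantation chamber, read 1.35, 5.62, 58.5, 74 and 62.04 CPM (4.14 ± 0.48) and lost its call without induced 1 (0.0614). Slc27a2, a fatty acid transporter, read 1.78, 2.87, 12.9, 10.2 and 20.95 CPM (2.60 ± 0.40) and lost its call without control 2 (0.0997) or control 3 (0.0707). Among the largest falls, Arg1, which encodes arginase, read 18.97, 17.7, 0.826, 0.552 and 0.440 CPM (-4.88 ± 0.28, adjusted p = 4.16e-05), a kept call. Hapln1, a matrix link protein, read 47.4, 45.6, 6.43, 6.35 and 2.49 CPM (-3.11 ± 0.32) and lost its call without control 2 (0.0516). Dnahc6, a dynein heavy chain, read 6.28, 4.13, 0.734, 0.591 and 0.587 CPM (-3.01 ± 0.39) and lost its call without control 2 (0.0663). Hspa14, a ribosome-associated chaperone whose symbol covers 2 gene models, read in 1 of them 6.46, 10.2, 1.71, 0.423 and 0.814 CPM (-3.13 ± 0.52) and lost its call without control 2 (0.0582) or control 3 (0.116). The other, which overlaps it, read 137, 146, 147, 146 and 143 CPM for Hspa14. Among the most abundant called genes, the surface sialomucin Podxl (-0.83 ± 0.13) and the chaperone Calr (-0.35 ± 0.09) fell without keeping their calls.

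Some of the largest falls were in gene models whose reads can also fit elsewhere. There were 24 models at 0 in all 3 induced pools and at a mean of 1 CPM or more in controls, of which 12 were pseudogenes and 4 were under 200 nucleotides. Of the 24, 11 had at most 3 counts in each of the 11 libraries of E9.5, and 10 had over 3 counts in all 6 pools of Oct4 E7.5. All 5 mitochondrial tRNA genes tested were called lower, as were 22 of 282 pseudogenes, while 7 pseudogenes were called higher. Rpsa, which encodes a ribosomal protein, read 1016 and 917 CPM in controls and 1573, 1616 and 1932 CPM in induced pools (0.82 ± 0.12), and lost its call without control 2 (0.0574) or control 3 (0.0944). Its processed copy Rpsa-ps10, chosen after its values were seen, read 803 and 954 CPM in controls and 483, 515 and 491 CPM in induced pools (-0.82 ± 0.10). Their sum read 1819, 1871, 2056, 2131 and 2423 CPM, so the 2 models moved in opposite directions while the sum moved less than either.

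Nanog and Oct4 induction at E7.5 share no pools. Of 14049 genes tested in both, 412 were called higher with Nanog and 326 (2.32%) with Oct4, and 130 were shared, 31.6% of the first and 39.9% of the second. Of genes called lower, 672 with Nanog and 550 (3.91%) with Oct4, 262 were shared, 39.0% and 47.6%. A fold change of the same sign was found in the Oct4 line for 373 of the 412 and 606 of the 672. The share with the same sign over all 14049 genes was not computed, so these counts stand without a baseline. Of the kept calls tested in both, 26 of 32 higher and 48 of 69 lower genes were called the same way with Oct4. In opposite directions, 3 genes were called, among them Pcdh12 and Tcte2.

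A test of the difference between the Nanog and Oct4 responses called 34 of 16680 genes (0.204%), 11 with the Nanog response above and 23 below. Of the 23, 14 were pseudogenes or mitochondrial tRNA genes. Only the induced Nanog pools differed from the other E7.5 pools in their short gene models. A difference between library types therefore cannot be told apart from a difference between the responses. Pcdh12, a protocadherin of endothelium and placenta, read 1.31, 1.78, 4.13, 13.6 and 10.6 CPM in the Nanog pools on the scale common to both lines. In the Oct4 line it read 1.25, 0.857 and 0.689 CPM in controls and 0.395, 0.370 and 0.248 CPM in induced pools. It was thus higher than controls in 1 line and lower in the other, a log2 difference of 4.01 ± 0.67 (adjusted p = 0.0331). The secreted chaperone gene Clu (2.14 ± 0.37), the placental homeobox gene Dlx3 (2.03 ± 0.33), the class Ib histocompatibility gene H2-T23 (1.25 ± 0.22) and Rps2 (0.84 ± 0.13) followed. Within the Nanog line Dlx3 did not pass the edgeR test (0.77, adjusted p = 0.154). Pecam1, the endothelial adhesion gene, read 11.5, 17.3, 14.2, 22.5 and 22.8 CPM in the Nanog pools, with overlapping groups. In the Oct4 line it read 10.5, 12.2 and 11.5 CPM in controls and 3.83, 3.97 and 4.09 CPM in induced pools, a difference of 1.98 ± 0.29 (adjusted p = 0.014). The trophoblast sum, 39.2 and 93.0 CPM in Nanog controls and 174 to 226 CPM in Nanog induced pools, moved with these genes, and its part was not tested.

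On the lower side the named genes were Tcte2, Cd59b, B4galnt2 and Enpp2. Tcte2 read 29.6 and 27.7 CPM in Nanog controls and 13, 12.8 and 14.4 CPM in Nanog induced pools, and rose in the Oct4 line (log2 0.49). Its difference was -1.59 ± 0.17 (adjusted p = 0.00108). Cd59b, a complement inhibitor, differed by -1.40 ± 0.18 (adjusted p = 0.00396). Within the Nanog line Cd59b did not pass the edgeR test (-0.65, adjusted p = 0.0523). The differences of Tcte2 and Cd59b were called in all 11 fits that left out 1 pool. The glycosyltransferase gene B4galnt2 differed by -1.81 ± 0.32. Enpp2, which encodes the lipid enzyme autotaxin, rose in both lines, by 0.61 with Nanog and 1.85 with Oct4, and differed by -1.22 ± 0.20, although its call in the Nanog line was lost without any 1 of the 5 pools (0.0508 to 0.306). The differences of Pcdh12, Clu, Dlx3, H2-T23, Rps2, B4galnt2 and Enpp2 were all lost without Nanog control 2 or without Nanog control 3, with adjusted p up to 0.29 (H2-T23), and were called in 2 to 8 of the 11 fits. Pecam1 lost its call without Nanog control 2 (0.0966).

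By list, the Oct4 line had 11 of 19 primed epiblast genes higher and 23 of 30 Hox genes lower. Over the genes tested in both inductions it had 2.32% higher and 3.91% lower. The edgeR test called no difference between the lines in either list (lowest adjusted p = 0.221 and 0.272). It called a difference for 0.204% of all genes, so lists of this size would commonly hold none. The lack of a called difference does not show that the lines respond alike. Counts of calls in the 2 lines come from unlike tests and do not measure the size of a response. The Oct4 line had 3 controls and 24.9 M to 42.3 M counts per pool, the Nanog line 2 controls and 6.59 M to 26.0 M. Visceral endoderm genes were lower in 15 of 26 cases with Nanog and in 2 of 26 with Oct4. All 26 differences between the lines were below 0, with a median of -0.654 against -0.0019 for all genes, but none passed singly (lowest adjusted p = 0.0784, for Fgb). Endothelial genes fell in 13 of 21 cases with Oct4 and in 3 of 20 with Nanog. Of their 21 differences 16 were above 0, with a median of 0.747, and that of Pecam1 passed. All 13 mitochondrially encoded genes had a difference above 0, with a median of 0.99 and a lowest adjusted p of 0.176.

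**Figure D5:**
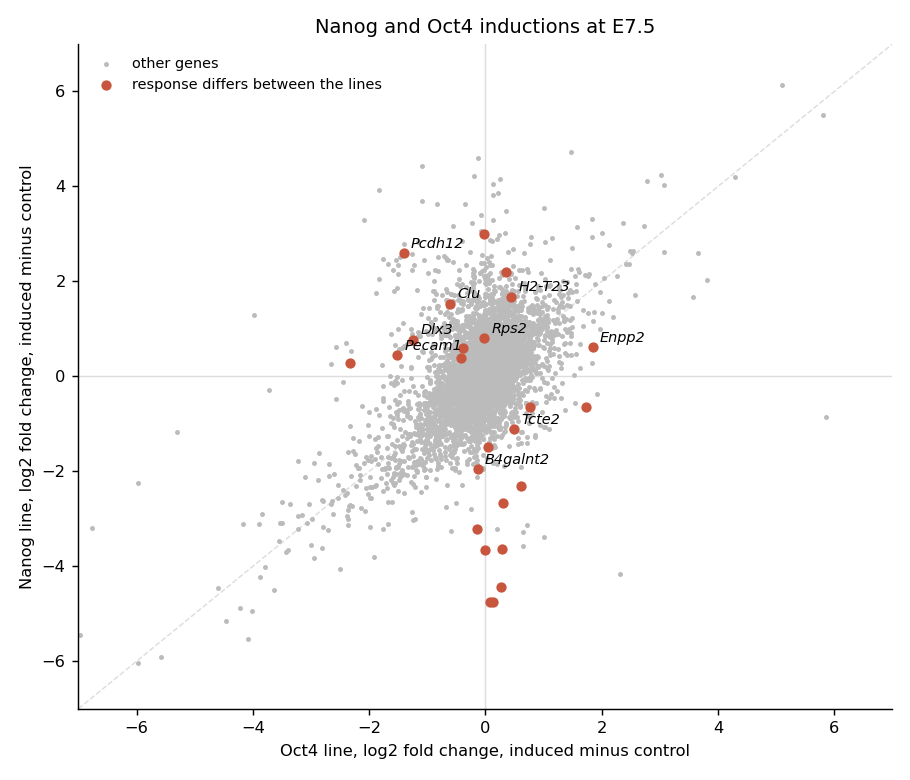
Log2 fold change on Nanog induction (vertical) against that on Oct4 induction (horizontal) at E7.5 for 14032 genes within the axes. Genes whose response differs between the lines are in red and a dashed line marks equal change. Of the 34 genes called different, 31 had a fold change in both lines, and 25 lie within the axes and are drawn. Tcte2 lies below 0 for Nanog and above 0 for Oct4, and Pcdh12 the reverse, while a column of red points lies near 0 for Oct4 and below 0 for Nanog.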

How the data were processed

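RNA of whole-embryo pools was sequenced in 22 libraries, of which the 5 of the Nanog line at E7.5 were compared and the 6 of the Oct4 line at E7.5 used for contrast. The authors deposited expected counts per gene from RSEM 1.17, and cutadapt, Picard, limma and the NCBIM37 build are named per the submitters' processing notes. RSEM divides reads that fit several genes, so values of paralogs and pseudogenes are uncertain, and whether strand was used is not given in the sources used here. Expected counts were rounded to whole counts for the tests. Genes were filtered with filterByExpr, libraries scaled by TMM and tested with the quasi-likelihood test of edgeR 4.0.16 (R 4.3.3) on the 5 pools, or on the 11 pools for the difference between lines, with Benjamini-Hochberg adjustment over all genes tested and a threshold of 0.05. Of 37680 gene IDs 37309 had an annotation. DESeq2 1.42.0, limma-voom (limma 3.58.1), other filters and scaling, left-out pools, 1 model over all 22 libraries and the controls of the Oct4 line were alternatives, and the script was tested on simulated data. Replicates were not copies of each other: chi-square per degree of freedom over genes with at least 20 counts was 3.74 for the controls and 14.6 to 17.6 for pairs of induced pools. By this measure the induced pools differed more among themselves than the controls did, while the test takes the same spread for both groups. Detection floors of 3 counts cover counting error only.

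The genes named are Nanog and Pou5f1, the 15 highest and 15 lowest called fold changes among protein-coding genes whose higher group averaged 5 CPM or more and whose pools did not overlap, the 10 called genes with the highest mean in each direction, members of 40 lists, and the 6 highest and 6 lowest called differences between lines under the same filters. The lists hold 866 entries, of which 847 matched 1 gene ID. Entries whose symbol covers 2 gene models, Fgfr1, Fzd10, Dab2, Trf and Tnnc1 among them, were left out of the list counts. The comparison and the lists were chosen with earlier results of these data known. Promoter sequences are from the RefSeq table of GRCm38.p6. Results for some genes these rules name are not reported here.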

Additional observations from a re-analysis of the deposited data

Results flagged for a closer look

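For 10 genes named above the response to Nanog differed from the response to Oct4 at E7.5 by the test of the difference itself (edgeR, adjusted p under 0.05, 5 Nanog pools and 6 Oct4 pools). Only the induced Nanog pools had few counts in short gene models at E7.5. A difference between library types therefore cannot be told apart from a difference between the responses. The log2 difference, Nanog minus Oct4, was above 0 for Pcdh12 (4.01), Clu (2.14), Dlx3 (2.03), Pecam1 (1.98), H2-T23 (1.25) and Rps2 (0.837). It was below 0 for B4galnt2 (-1.81), Tcte2 (-1.59), Cd59b (-1.40) and Enpp2 (-1.22). Of these, Tcte2 and Cd59b were called in all 11 fits that left out 1 pool, Pecam1 in 10 and Rps2 in 8, and Pcdh12, H2-T23 and B4galnt2 in 2. Dlx3, Pecam1 and Cd59b were not called within the Nanog line itself.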

How the results depend on the processing

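With 2 control pools, each control carried much of the test: leaving out 1 pool gave 161 to 1383 called genes in place of 1099, with 161 without control 2 and 171 without control 3, the single control left being taken to vary as the induced pools do. It was 1721 when low counts were not filtered, 2737 in a model of all 22 libraries at once and 3744 against the controls of the Oct4 line. It was 1103 with the size factors of DESeq2, 1481 with DESeq2 (668 higher), 858 with limma-voom (241 higher), 1053 with a mean of at least 1 CPM and 1089 without mitochondrial genes and models under 200 nucleotides. Differences between the lines numbered 34, and 244 with DESeq2, 13 with limma-voom, 56 with no filter and 16 to 102 without 1 pool, with 16 without Nanog control 3, 19 without Nanog control 2, Oct4 control 1 or Oct4 control 3, 20 without Oct4 induced 3 and 102 without Nanog induced 1. The causes were not tested. Of 237 named genes in the edgeR test, 236 stayed on their side of the threshold with the size factors of DESeq2, 230 with DESeq2 and 202 with limma-voom. The 31 calls lost with limma-voom (adjusted p = 0.0511 to 0.174) were those of Amn, Asns, Axin2, Bmp7, Calr, Dusp6, Elavl3, Enpp2, Evx1, Fasn, Foxa1, Foxd3, Gas1, Gsc, Id3, Ier3, Lamb1, Lefty1, Lox, Mesp2, Ndrg1, Npc2, Pcdh12, Rpl38, Slc27a2, Slc7a5, Sox7, Spry4, Wnt2b, Zfp36 and Zfp42. The 13 lost when low counts were not filtered (0.0517 to 0.122) were those of Aldh1a2, Bmp5, Ccnd2, Cdx1, Crabp2, Dnmt1, Fgfr3, Gata5, Gsc, Lhx1, Pcdh12, Prss29 and Rbp4. Of the 40 list medians 11 changed sign in at least 1 alternative, as given beside them. Among the others, leaving out 1 pool moved by over 1.5 times those of the Nodal (0.262 without induced 3), streak (-0.0735 without induced 4), retinoic acid (-0.178 without induced 1), endothelial (-0.112 without induced 1), anterior neural (-0.415 without control 2), parietal endoderm (-0.0807 without induced 1, -0.363 without control 2 and -0.372 without induced 4), hypoxia (0.00114 without induced 3, 0.115 without induced 1 and 0.154 without control 3), cell cycle (-0.034 without control 2 and -0.0424 without induced 4), lysosomal (-0.0325 without control 3) and lipid lists (0.0716 to 0.122 without control 3 or an induced pool). Against the controls of the Oct4 line the medians of the endothelial (-0.0193), heart (-0.661), imprinted (-0.341), node and endoderm (0.315), streak (-0.316), parietal endoderm (-0.321), lysosomal (-0.341) and lipid lists (0.0722) moved as far. Without control 2 the call was lost for 152 of 236 and without control 3 for 154 of 236. Against the controls of the Oct4 line 4 genes changed sign: Dnmt1 (0.00415), Rpl11 (-0.0344), Rpl37 (-0.0646) and Rps19 (-0.035).

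No paired analysis was possible for the Nanog line because its control and induced pools share only replicate number 3. With the replicate block on the Oct4 line the differences between lines numbered 40 in place of 34, and the deviations of same-numbered Oct4 pools had correlations of 0.14, 0.151 and 0.015, the third near 0. The smallest library had 6.59 M counts, which limits calls for genes near the floor of 0.455 CPM.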
